A study of Mus musculus with 12 samples.

Results

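A set of 10 transcriptional regulators known for keeping hematopoietic stem cells (HSCs) was followed across sorted mouse HSCs that did or did not carry mutant p53: Zfp521, Mecom, Hlf, Gata2, Gfi1b, Gfi1, Runx1, Tal1, Lmo2 and Bmi1. All array probes annotated to exactly 1 of these symbols were taken, which gave 16 probes for 10 genes, out of 46632 probes and 17711 genes on the array. Mecom, Runx1 and Zfp521 had 3 probes each and the other 7 genes had 1. Only probes called present in both replicates of 1 group or more, by a detection p under 0.05, entered the tests, and 7 of the 16 passed, 1 each for Zfp521, Mecom, Gata2, Gfi1b, Runx1, Tal1 and Lmo2, among 13512 probes and 8374 genes that passed in all.

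The study compared competing and non-competing HSCs after irradiation, using 12 bead arrays in 6 groups of 2 biological replicates. In R26-mp53 mosaic mice, mutant p53 cells carried GFP and wild-type (WT) cells of the same animals did not. One pair of groups came from mosaic mice with no treatment, unirradiated WT cells and unirradiated mp53 cells, and the labels give both as not in competition. A second pair came from mosaic mice 3 weeks after 2.5 Gy of ionizing radiation: the WT cells, which the labels call losers, and the mp53 cells, which they call winners. The remaining pair came from irradiated mice of a single genotype, WT mice and fully recombined R26-mp53 mice, also 3 weeks after 2.5 Gy, and are called non-competing here. Competition and the kind of mouse therefore cannot be told apart in comparisons with the non-competing groups. Against unirradiated cells of mosaic mice, the non-competing groups differ in both irradiation and the kind of mouse, which cannot be told apart either. Winners and losers differ from those unirradiated cells in both irradiation and competition, which likewise cannot be told apart. Each array held amplified RNA of 200 cells sorted as lineage-negative, c-Kit-positive, Sca-1-positive, CD48-negative and CD150-positive. Which p53 mutation was carried, what drove recombination, and the mice's age and sex are not stated in the labels. The labels do not say whether replicates came from separate mice, so the p-values measure the spread between these samples, which may be technical.

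Tal1, a basic helix-loop-helix factor, binds DNA at E-boxes with E-protein partners and is bridged by the adaptor Lmo2 to a GATA factor, which in stem and early progenitor cells is largely Gata2. Runx1 is the DNA-binding subunit of core binding factor, and Gfi1 and Gfi1b are related zinc finger repressors that recruit the demethylase Kdm1a and its partner Rcor1. Mecom encodes Evi1, Hlf is a leucine zipper factor enriched in HSCs, Zfp521 is a many-fingered cofactor that holds back differentiation, and Bmi1 is a Polycomb subunit that silences the Cdkn2a locus.

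Start site sequences of 4 members are shown because Tal1 and Gata2 varied together across the arrays described below. Gfi1b followed them less closely and Runx1 did not follow them. RefSeq windows of 300 bases around a transcription start site (build GRCm38.p6) were found for 8 of the 10 members, 13 windows in all, and were searched on both strands for the letters GATAA, which GATA factors bind, CANNTG, the E-box, and TGTGGT, a Runx motif. The first window of Tal1 lies at chr4:115056176-115056475 on the plus strand, the first of Gata2 at chr6:88193641-88193940 on the plus strand, that of Gfi1b at chr2:28621933-28622232 on the minus strand, and the first of Runx1 at chr16:92826025-92826324 on the minus strand. Capitals mark matches to GATAA or to TGTGGT on either strand, so that a match on the opposite strand reads as its complement, TTATC or, for the Runx motif, ACCACA.
Tal1: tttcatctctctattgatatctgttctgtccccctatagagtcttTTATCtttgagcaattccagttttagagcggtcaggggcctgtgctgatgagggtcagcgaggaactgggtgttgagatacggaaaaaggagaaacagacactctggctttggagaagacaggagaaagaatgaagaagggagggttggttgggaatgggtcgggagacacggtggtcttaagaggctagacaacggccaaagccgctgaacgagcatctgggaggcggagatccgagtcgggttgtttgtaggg
Gata2: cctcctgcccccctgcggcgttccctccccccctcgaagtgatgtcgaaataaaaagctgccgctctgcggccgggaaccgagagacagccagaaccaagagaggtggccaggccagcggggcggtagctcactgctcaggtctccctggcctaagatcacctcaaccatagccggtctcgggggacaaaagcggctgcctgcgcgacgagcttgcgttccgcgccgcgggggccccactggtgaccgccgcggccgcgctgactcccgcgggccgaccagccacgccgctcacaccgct
Gfi1b: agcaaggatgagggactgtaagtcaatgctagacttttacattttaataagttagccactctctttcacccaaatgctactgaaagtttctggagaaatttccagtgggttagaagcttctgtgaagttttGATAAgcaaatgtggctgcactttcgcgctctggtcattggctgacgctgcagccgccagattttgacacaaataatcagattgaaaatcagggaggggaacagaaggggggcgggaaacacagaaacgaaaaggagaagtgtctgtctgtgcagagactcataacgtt
Runx1: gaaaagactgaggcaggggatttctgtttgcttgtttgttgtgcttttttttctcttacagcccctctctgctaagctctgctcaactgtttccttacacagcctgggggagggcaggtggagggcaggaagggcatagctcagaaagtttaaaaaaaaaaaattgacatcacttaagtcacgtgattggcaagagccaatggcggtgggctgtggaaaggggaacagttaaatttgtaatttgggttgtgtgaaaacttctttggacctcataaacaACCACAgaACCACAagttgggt
The window shown for Tal1 held 1 GATAA match and 1 E-box, and that for Gfi1b 1 GATAA match and 2 E-boxes. That for Runx1 held 2 TGTGGT matches and 3 E-boxes, and that for Gata2 none of the 3. In the second windows, not shown, Tal1 and Runx1 held none of the 3 and Gata2 held 1 E-box. No 2 matches of different motifs overlapped in these windows. Across 32851 mouse windows of that length, 25.4% held GATAA, 72.3% an E-box and 16.8% TGTGGT, so each match is common and is given as a description of the letters only.

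Brightness varied between arrays, with a 95th percentile of deposited intensity that ran from 82.3 on replicate 1 of the unirradiated mp53 cells and 107 on replicate 1 of the losers to 1079 on replicate 2 of the winners, and 19.2 to 28.9% of probes were detected per array. Intensities were background corrected and quantile normalized over the 12 arrays, so a level below is a log2 value on that scale and can be compared between arrays for 1 probe, not between genes. Of the HSC surface and identity genes, Kit, Fgd5, Ndn, Robo4, Ctnnal1 and Vwf were detected on all 12 arrays, Slamf1, which encodes the CD150 of the gate, on 3, and Procr on none. Cd48 was detected on 10 arrays although the gate excludes CD48 at the surface. In these bulk samples, fewer cells of a type and less RNA per cell cannot be told apart.

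Zfp521 was detected on all 12 arrays and was lowest in the winners. Its log2 level was 7.69 and 7.32 in unirradiated WT cells, 6.74 and 6.25 in non-competing WT cells and 7.44 and 7.06 in losers. In mp53 cells it was 7.48 and 6.80 without irradiation, 7.27 and 6.17 without competition, and 5.42 and 5.07 in winners. Both winner arrays lay below all 10 other arrays. The order of group means was unirradiated WT (7.50 ± 0.26, SD, n = 2), losers (7.25 ± 0.27), unirradiated mp53 (7.14 ± 0.48), non-competing mp53 (6.72 ± 0.78), non-competing WT (6.49 ± 0.35) and winners (5.25 ± 0.25), and of neighbours in that order only the last pair did not overlap. In deposited intensity the probe read 69.2 and 99.6 in winners and 92.4 and 110 in losers, with 250 and 317 in unirradiated WT cells, so winners and losers overlapped before the arrays were put on one scale. The other Zfp521 probes were not detected on any array, at log2 levels of 4.17 to 4.50, and bring no second reading of the gene.

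**Figure D1:**
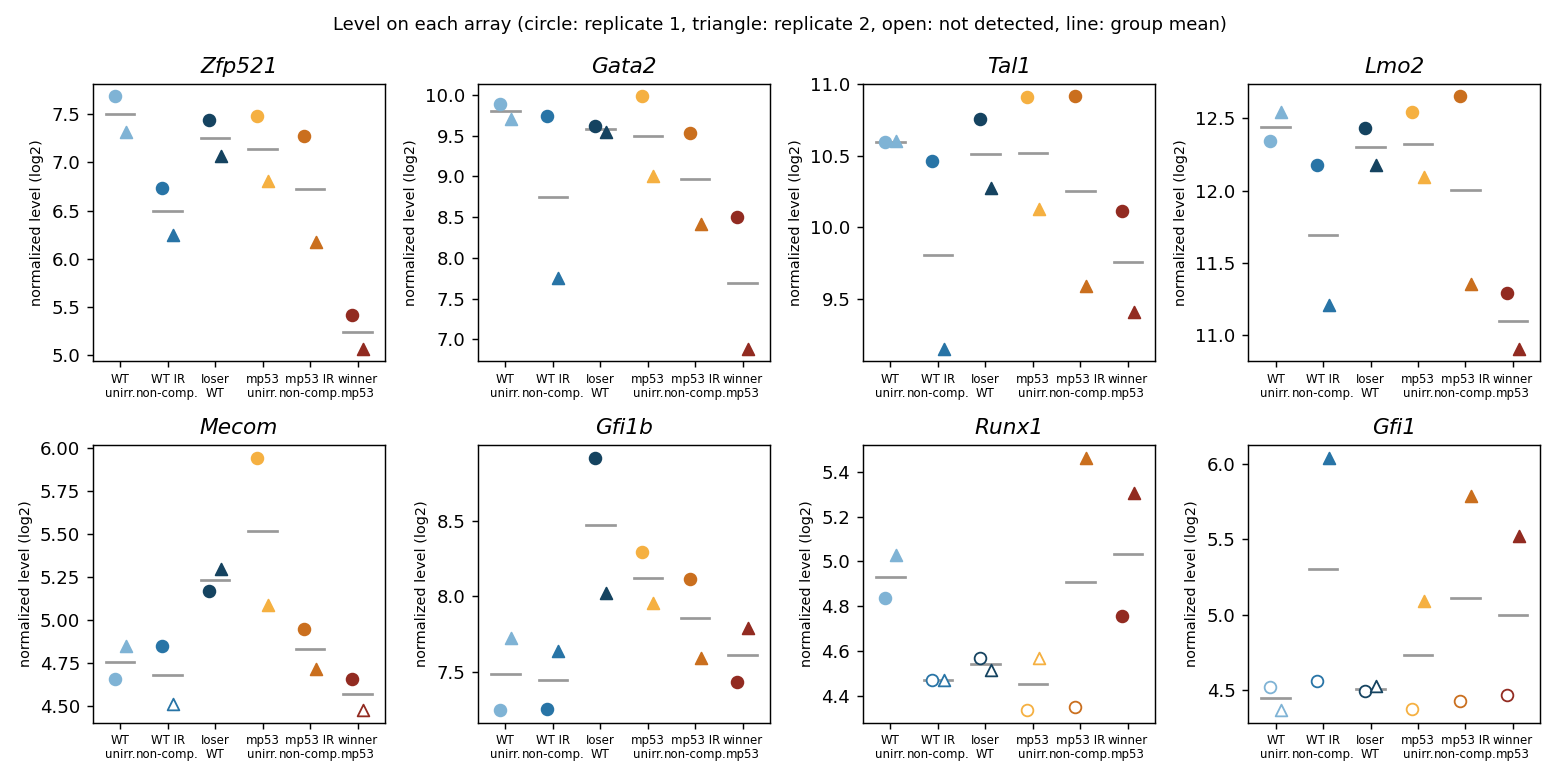
Normalized log2 level of 8 member genes (1 probe each) on the 12 arrays, in panels, with the 6 groups along each horizontal axis; circles are replicate 1, triangles replicate 2, open symbols arrays on which the probe was not detected, and grey lines group means. Zfp521 sits at 5.42 and 5.07 in winners against 6.17 or more elsewhere, and its winner minus loser difference also lay below the all-probe shift under median scaling; open symbols dominate Runx1 and Gfi1.

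Gata2, Tal1 and Lmo2, the members that can sit in 1 DNA-bound complex, were each detected on all 12 arrays. Gata2 read 9.89 and 9.70 in unirradiated WT cells, 9.74 and 7.75 in non-competing WT cells, 9.61 and 9.54 in losers, 9.98 and 9.01 in unirradiated mp53 cells, 9.53 and 8.42 in non-competing mp53 cells, and 8.50 and 6.88 in winners. Its lowest array was replicate 2 of the winners, but replicate 2 of the non-competing WT cells was also low, and winners overlapped both non-competing groups. Winners did not overlap losers or either unirradiated group.

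Lmo2, the adaptor, read 12.34 and 12.55 in unirradiated WT cells, 12.18 and 11.21 in non-competing WT cells, 12.43 and 12.18 in losers, 12.55 and 12.09 in unirradiated mp53 cells, 12.65 and 11.36 in non-competing mp53 cells, and 11.29 and 10.91 in winners. Winners lay below the other groups except non-competing WT cells, whose replicate 2 fell between the winner arrays. Group means ran from 12.44 ± 0.15 in unirradiated WT cells to 11.10 ± 0.27 in winners.

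Tal1 had group means that lay closer together than the replicates of either non-competing group. It read 10.59 and 10.60 in unirradiated WT cells, 10.46 and 9.15 in non-competing WT cells, 10.76 and 10.27 in losers, 10.90 and 10.13 in unirradiated mp53 cells, 10.91 and 9.59 in non-competing mp53 cells, and 10.11 and 9.41 in winners. Its lowest array was replicate 2 of the non-competing WT cells, and group means ran from 10.60 in unirradiated WT cells to 9.76 ± 0.50 in winners and 9.81 ± 0.92 in non-competing WT cells.

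Gfi1b, the repressor known for the erythroid and megakaryocyte lineages as well as for HSCs, did not share that order. It read 7.25 and 7.73 in unirradiated WT cells, 7.26 and 7.64 in non-competing WT cells, 8.92 and 8.02 in losers, 8.29 and 7.95 in unirradiated mp53 cells, 8.12 and 7.59 in non-competing mp53 cells, and 7.43 and 7.79 in winners. Losers were highest and stood above all arrays of the other WT groups. Their replicate 1, at 8.92, came from the second dimmest array, and the deposited intensities were 187 and 197 in losers against 180 and 204 in non-competing WT cells.

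Gfi1, the paralog better known in granulocyte development and in restraining HSC division, was detected on 4 arrays, all replicate 2: those of the non-competing WT cells (6.04), the non-competing mp53 cells (5.79), the winners (5.52) and the unirradiated mp53 cells (5.09). On the other 8 arrays it read 4.37 to 4.56 without detection. No group had both arrays detected, so it was not tested.

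Mecom was dim. Its log2 levels were 4.66 and 4.85 in unirradiated WT cells, 4.85 and 4.51 in non-competing WT cells, 5.17 and 5.29 in losers, 5.95 and 5.09 in unirradiated mp53 cells, 4.95 and 4.71 in non-competing mp53 cells, and 4.66 and 4.48 in winners. It was detected on 10 arrays, not on replicate 2 of the non-competing WT cells nor on replicate 2 of the winners. Its deposited intensity hardly moved, from 48.1 to 58.6 over the 12 arrays, a ratio of 1.22. The highest level, 5.95, belonged to the dimmest array, and the level correlated with array brightness at r = -0.76 over 12 arrays. The other Mecom probes were not detected on any array.

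Runx1 was read by 1 of its 3 probes, on 5 arrays: both of the unirradiated WT cells (4.84 and 5.03), both of the winners (4.76 and 5.31) and replicate 2 of the non-competing mp53 cells (5.46). The other arrays read 4.34 to 4.57, and no loser array was among those detected. Its level correlated with array brightness at r = 0.82 over the 12 arrays. Hlf, at 4.31 to 4.54, and Bmi1, at 4.23 to 4.58, were not detected on any array, and neither were the remaining Runx1 probes, so these data hold no measured level of Hlf or Bmi1.

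Across the 12 arrays, levels of the other tested members correlated with array brightness at r = -0.65 for Zfp521, -0.67 for Gata2, -0.60 for Tal1, -0.61 for Lmo2 and -0.52 for Gfi1b, where brightness is the log2 of the 95th percentile of intensity. The winners included the brightest array and the losers and unirradiated mp53 cells the dimmest ones, so brightness moved with the groups as well. Its part in the differences below was not tested beyond fits that carried it as a covariate or left out the 2 dimmest arrays.

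**Figure D2:**
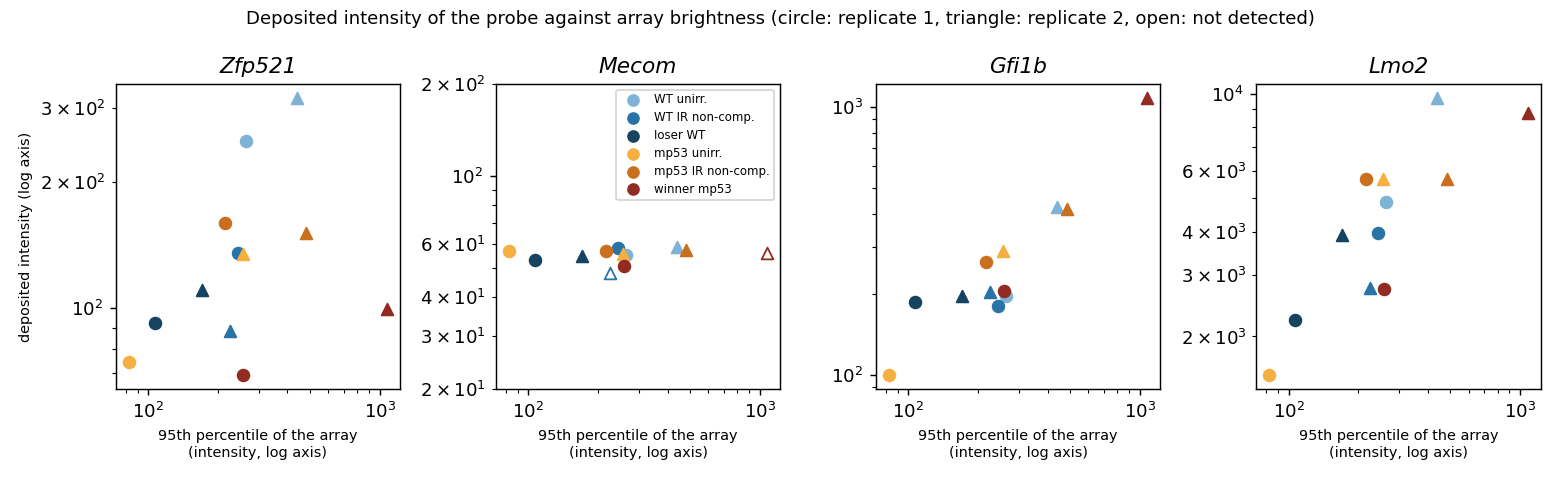
Deposited intensity of the Zfp521, Mecom, Gfi1b and Lmo2 probes (vertical log axis) against the 95th percentile of intensity of the same array (horizontal log axis), coloured by group; circles are replicate 1, triangles replicate 2, open symbols not detected. Mecom stays between 48.1 and 58.6 on arrays whose 95th percentile runs from 82.3 to 1079, while Lmo2 runs from 1544 to 9742.

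Winners were first compared with losers, mp53 and WT cells of irradiated mosaic mice. Zfp521, Gata2, Lmo2, Gfi1b, Tal1 and Mecom lay lower in winners and Runx1 higher, 6 and 1 of 7, against 52.1% of all tested probes below 0. Under scaling of arrays to one median, the median difference of all probes was 1.07. Only Zfp521, Mecom, Gata2 and Lmo2 lay below that shift and Gfi1b, Tal1 and Runx1 above it. Mecom kept a deposited intensity of 48.1 to 58.6 on all arrays. Its place relative to such a shift, here and below, is therefore no reading of its level. The median difference of the members was -0.86, against -0.04 over all probes. None of the 7 passed limma's test at an adjusted p of 0.05, and neither did any of the 13512 probes (0%). At an unadjusted p under 0.05 there were 3 members, Zfp521, Lmo2 and Gata2, against 13.7% of all probes. The 6 lower members and Runx1 had groups that did not overlap, which held for 28.4% of all probes in the lower and 25% in the higher direction.

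Zfp521 had the widest gap of these, 4.02-fold lower in winners, a log2 difference of -2.01 (SE 0.42, 95% interval -2.97 to -1.04, limma adjusted p = 0.292). It ranked 50 among 13512 probes by p, and the differences within replicate 1 and within replicate 2 were -2.02 and -1.99. With brightness as a covariate the difference was -1.25 (SE 0.43, adjusted p = 0.316), and without the 2 dimmest arrays -1.82 (SE 0.51, adjusted p = 0.511). Relative to all probes it was -1.73 under median scaling. Its sign therefore did not turn in these fits, and its size moved by over 1.5 times with the covariate.

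For Gata2 the winner minus loser difference was -1.89 (SE 0.75, interval -3.59 to -0.18, limma adjusted p = 0.338), with -1.12 in replicate 1 and -2.65 in replicate 2. With the brightness covariate this became -0.58. For Lmo2 the difference was -1.20 (SE 0.48, interval -2.29 to -0.12, limma adjusted p = 0.336), -1.14 and -1.27 within replicates, and -0.58 with the covariate. Both were thus lower in winners in each replicate, and the covariate moved both by over 1.5 times; under median scaling both also lay below the all-probe shift.

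Gfi1b differed by -0.86 (SE 0.38, limma adjusted p = 0.370), of which -1.48 came within replicate 1 and -0.23 within replicate 2, and by -0.41 without the 2 dimmest arrays. Tal1 differed by -0.75 (SE 0.57, limma adjusted p = 0.527) and by 0.18 with the covariate, which turned its sign. Mecom differed by -0.66 (SE 0.32, limma adjusted p = 0.392). Runx1 was at least 1.14-fold higher in winners, because no loser array detected it, with a fitted difference of 0.49 (SE 0.38, limma adjusted p = 0.533) that became -0.12 with the covariate. The 95% intervals of these 4 differences included 0.

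**Figure D3:**
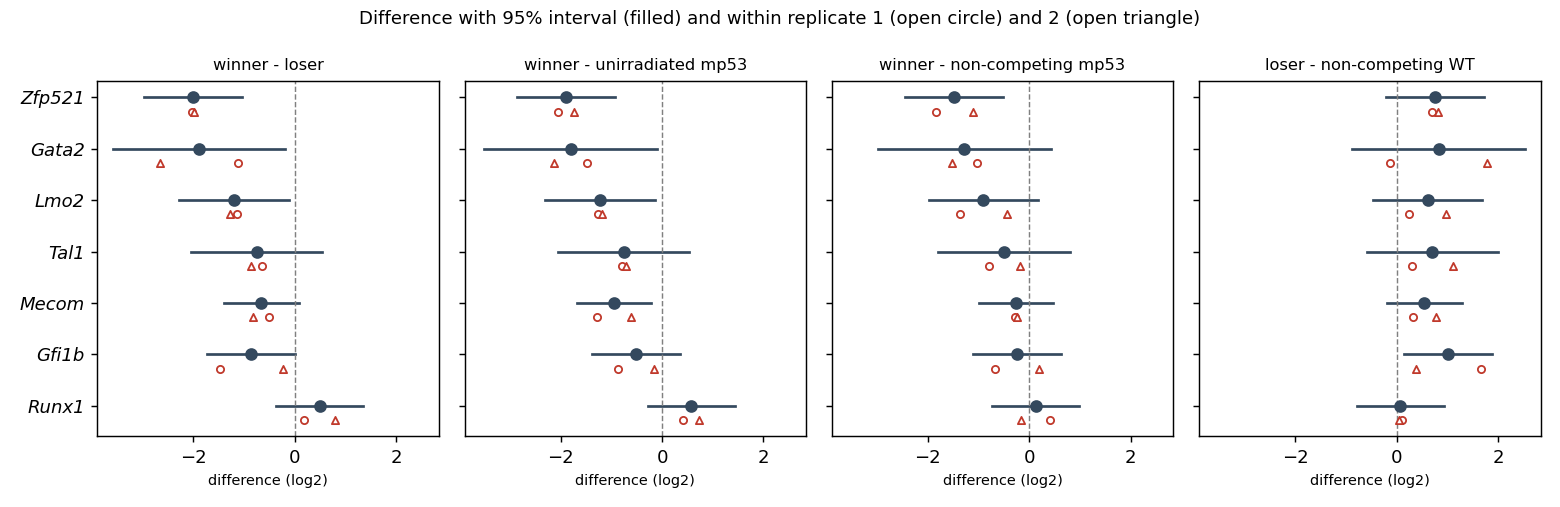
Fitted log2 differences of the 7 tested members (filled points) with 95% intervals (lines), in 4 comparisons, one per panel; open circles and triangles are the differences within replicate 1 and replicate 2. Zfp521 lies at -2.01, -1.90 and -1.48 in the panels that share the winner arrays, none past the adjusted threshold; under median scaling Gfi1b, Tal1 and Runx1 lay above the shift of all probes in the first pair of panels.

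Markers of other cells moved with this comparison. Of 12 tested granulocyte and monocyte genes, 12 lay higher in winners than in losers, also under median scaling, where 12 lay above the all-probe shift, with a median difference of 1.87. With the brightness covariate 7 of the 12 lay above the all-probe median. Their summed linear level was 54917 and 46322 in winners against 7710 and 31378 in losers, 1112 and 54169 in non-competing mp53 cells, 43730 and 58359 in non-competing WT cells, 36882 and 7760 in unirradiated WT cells and 14221 and 36497 in unirradiated mp53 cells, and Itgam was not detected on any array. The arrays on which Gata2, Tal1 and Lmo2 read low outside the winners, replicate 2 of both non-competing groups, thus had granulocyte sums above that of at least 1 winner array, while replicate 1 of the non-competing WT cells had 43730 with Gata2 at 9.74. Erythroid genes summed to 7900 and 4564 in winners against 311 and 2005 in losers, and to 272 to 3638 in the other groups. Of the tested erythroid genes 8 of 9 lay higher in winners than in losers. Ermap among them entered the tests only through winners.

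Of the lymphoid lists, B-lineage genes summed to 1739 and 639 in winners and 288 and 309 in losers, and T and NK genes to 525 and 1210 against 186 and 604. Of the tested genes 5 of 6 B-lineage and 5 of 5 T and NK genes lay higher in winners. Above the all-probe shift under median scaling lay 4 of 6 and 5 of 5. Cd79a, Blnk, Fcrla, Cd3e and Thy1 entered the tests only through winners, so the filter favoured their higher level there. These counts are therefore a description only. Ms4a1 went the other way, at -0.50. Cd79a was detected on both winner arrays and no others, and Cd3e and Cd3d on both winner arrays and no loser array. Blnk was at least 9.32-fold and Cd3d at least 7.41-fold higher in winners, while Cd22, Ptprcap, Cd3g, Cd4 and Gzma were not detected on any array. The mast cell and basophil sum was 1358 and 781 in winners against 120 and 268 in losers, and the progenitor sum 2489 and 1014 against 466 and 527. Of the tested genes 4 of 4 mast cell and basophil genes and 4 of 5 progenitor genes lay higher in winners. Il7r, among these progenitor genes, entered the tests only through winners. The progenitor gene Cd34 went the other way, with a winner minus loser difference of -1.67 (SE 0.49). The megakaryocyte sum, 1984 and 423 against 2214 and 1048, overlapped, and Itga2b, Gp9 and Gp6 were not detected. The HSC surface and identity genes summed to 520 and 362 in winners, 2865 and 2710 in losers and 854 to 4410 in the other groups. Of these genes 9 of 9 tested lay lower in winners, below the all-probe shift under median scaling too. Tek, at -0.04, was detected on no winner or loser array, so its direction was not measured. Slamf1 was detected on 1 loser array and no winner array. The part of these cell markers in the members' differences was not tested.

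Winners were next set against unirradiated mp53 cells of mosaic mice, from which they differ in both irradiation and competition. Winners again lay lower in 6 of 7 members, where 49% of all probes lay below 0. Under median scaling, with a shift of 1.05, Gfi1b, Tal1 and Runx1 lay above it. Zfp521 differed by -1.90 (SE 0.42, limma adjusted p = 0.370), Gata2 by -1.80 (SE 0.75), Lmo2 by -1.22 (SE 0.48) and Mecom by -0.95 (SE 0.32), the last 3 at the same adjusted p to 3 digits. These 4 were under an unadjusted p of 0.05, against 13.3% of all probes, and 0 of 7 members and 0% of all probes passed after adjustment by limma. The 6 lower members did not overlap between groups (21.7% of all probes lower), nor did Runx1 (23% higher), which was at least 1.12-fold higher in winners because no unirradiated mp53 array detected it. Mecom rested on the dimmest array: without it and the dimmest loser array its difference was -0.52, while that of Zfp521 was -1.56. Conversely, with replicate 2 of the unirradiated mp53 cells left out, Mecom was at -1.38 with an adjusted p of 0.0494 in limma, in a fit that set the winners against that dimmest array alone and called 599 of all probes.

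Against non-competing mp53 cells of fully recombined mice, winners lay lower in 6 of 7 members (56.1% of all probes below 0), and in 5 of 7 relative to all probes under median scaling. Zfp521 differed by -1.48 (SE 0.42, limma adjusted p = 0.9999), with -1.85 and -1.10 within replicates, and was the only member under an unadjusted p of 0.05, against 2.92% of all probes. Lmo2 differed by -0.90 (SE 0.48) and Gata2 by -1.28 (SE 0.75). Zfp521, Mecom and Lmo2 did not overlap between these groups, against 16.3% of all probes in the lower direction.

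Losers were compared with non-competing WT cells in the same way. All 7 members lay higher in losers than in non-competing WT cells, where 53% of all probes lay above 0, and all 7 lay above the all-probe shift of -0.29 under median scaling, although Zfp521, Gata2, Tal1 and Lmo2 then lay between -0.16 and -0.03 before that shift was taken off. Gfi1b had the largest difference, 1.02 (SE 0.38, limma adjusted p = 0.912), split into 1.66 and 0.38 within replicates and 0.57 without the 2 dimmest arrays. It was the 1 member under an unadjusted p of 0.05 (4.08% of all probes). Zfp521 differed by 0.76 (SE 0.42) with 0.70 and 0.81 within replicates, Gata2 by 0.83 (SE 0.75) with -0.13 and 1.79, and without replicate 2 of the non-competing WT cells by -0.17. Zfp521, Mecom, Gfi1b and Runx1 did not overlap (20.3% of all probes higher), Runx1 with no array detected in either group.

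Whether competition differed between genotypes was tested as an interaction, (winner minus non-competing mp53) minus (loser minus non-competing WT). Zfp521 gave -2.23 (SE 0.60, interval -3.60 to -0.87, limma adjusted p = 0.599), with -2.55 and -1.92 within replicates. Gata2 gave -2.11 (SE 1.06), Lmo2 -1.51 (SE 0.67), Gfi1b -1.27 (SE 0.54), Tal1 -1.20 (SE 0.81) and Mecom -0.81 (SE 0.46). Thus 6 of 7 lay below 0, as did 54.8% of all probes, and 7 of 7 lay below the all-probe shift of 0.68 under median scaling. At an unadjusted p under 0.05 there were 2 members, Zfp521 and Gfi1b, against 7.78% of all probes, and 0 passed after adjustment.

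The interaction of irradiation and genotype within mosaic mice used the same winner and loser arrays and set each against its unirradiated group. Irradiation here includes competition, because the labels give the unirradiated groups as not in competition. It gave -1.64 for Zfp521 (SE 0.60, limma adjusted p = 0.301), -1.58 for Gata2 (SE 1.06), -1.49 for Gfi1b (SE 0.54), -1.43 for Mecom (SE 0.46), -1.08 for Lmo2 (SE 0.67), -0.67 for Tal1 (SE 0.81) and 0.97 for Runx1 (SE 0.53). That made 6 of 7 below 0 (46.8% of all probes), while under median scaling, with a shift of 1.80, 4 lay below the shift and 3 above it. Zfp521, Mecom and Gfi1b were under an unadjusted p of 0.05, against 15.5% of all probes, and without the 2 dimmest arrays they stood at -1.12, -1.06 and -0.88. Without replicate 2 of the unirradiated mp53 cells Mecom reached -1.85, at an adjusted p of 0.0396 in limma with 1285 probes called.

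The unirradiated cells of mosaic mice gave the genotype comparison without treatment. Mecom was higher in mp53 than in WT cells by 0.76 (SE 0.32, limma adjusted p = 0.805), with 1.29 within replicate 1 and 0.24 within replicate 2, and was the only member under an unadjusted p of 0.05, against 4.37% of all probes. Gfi1b was higher by 0.63 (SE 0.38), which turned to -0.81 under median scaling, or -0.15 relative to all probes. Zfp521 differed by -0.36, Gata2 by -0.30, Lmo2 by -0.12 and Tal1 by -0.08, all with overlapping groups. Runx1 was at least 1.04-fold lower in mp53 cells, where no array detected it. In all 5 of 7 members lay lower (53.9% of all probes); relative to all probes under median scaling, Gfi1b joined the lower ones, at -0.15, and Runx1 left them, at 0.11. Groups did not overlap for Mecom and Gfi1b (14.3% of all probes higher) and for Runx1 (14.1% lower).

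Non-competing irradiated cells of both genotypes could not be separated by any tested member. The mp53 minus WT differences were 0.15 to 0.45, with all 7 above 0 where 50.2% of all probes were, 6 of 7 above the all-probe shift of 0.23 under median scaling, and all groups overlapping (11.8% of all probes did not in the higher direction and 8.21% in the lower). None of the 7 was under an unadjusted p of 0.05, against 0.962% of all probes. For Zfp521 the difference was 0.23 with a 95% interval of -0.74 to 1.20. Averaged over the 3 settings, mp53 minus WT was -0.71 for Zfp521 (SE 0.25, limma adjusted p = 0.9997), the 1 member of 7 under an unadjusted p of 0.05 (2.25% of all probes), and -0.65 to 0.15 for the others.

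The WT cells gave the irradiation comparison without competition, in which irradiation and the kind of mouse change together. Against unirradiated WT cells of mosaic mice, non-competing irradiated WT cells had lower levels of all 7 members (48.9% of all probes below 0), 6 of them below the all-probe shift of -0.24 under median scaling. Zfp521 differed by -1.01 (SE 0.42, limma adjusted p = 0.9998), with -0.95 and -1.07 within replicates and an unadjusted p under 0.05 that 1.75% of all probes shared. Zfp521, Tal1, Lmo2 and Runx1 did not overlap (15% of all probes lower), but Tal1 and Lmo2 differed by only -0.13 and -0.16 within replicate 1.

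Losers against the same unirradiated cells showed smaller gaps, -0.25 for Zfp521, -0.22 for Gata2, -0.14 for Lmo2 and -0.08 for Tal1, with 5 of 7 members lower (52.2% of all probes) and, under median scaling, 4 below and 3 above the shift of -0.73. Gfi1b was higher in losers by 0.98 (SE 0.38, limma adjusted p = 0.951), with 1.67 and 0.29 within replicates. Under median scaling Gfi1b was at -0.54, or 0.19 relative to all probes. In the main fit Gfi1b was the 1 member under an unadjusted p of 0.05 (3.81% of all probes). Mecom and Gfi1b lay above without overlap (19.9% of all probes) and Gata2 and Runx1 below (16.7%). In mp53 cells, non-competing irradiated cells lay lower than unirradiated cells in 6 of 7 members (46.9% of all probes). Relative to the all-probe shift of 0.61 under median scaling, 1 of 7 did. As in WT cells, irradiation and the kind of mouse change together here. Mecom differed by -0.69 (SE 0.32, limma adjusted p = 0.887) and was the only member without overlap (11.6% of all probes lower). No member was under an unadjusted p of 0.05, against 3.26% of all probes. No member was called in these 12 comparisons in limma's fit after adjustment, and the comparisons share arrays with one another, so they are not separate evidence.

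The members also varied together or apart from array to array. After the mean of the 6 arrays of each replicate number was taken off, Tal1 and Lmo2 correlated at r = 0.945 over the 12 arrays, Zfp521 and Lmo2 at 0.924, Gata2 and Lmo2 at 0.919, Zfp521 and Gata2 at 0.894, Gata2 and Tal1 at 0.865 and Zfp521 and Tal1 at 0.788. Mecom correlated with these 4 at 0.538 to 0.632. Gfi1b stood further off, at 0.177 with Gata2 and 0.607 with Mecom, and Runx1 ran against the rest, at -0.49 to -0.26. The arrays share brightness and the presence of other cell markers, and these correlations include both.

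**Figure D4:**
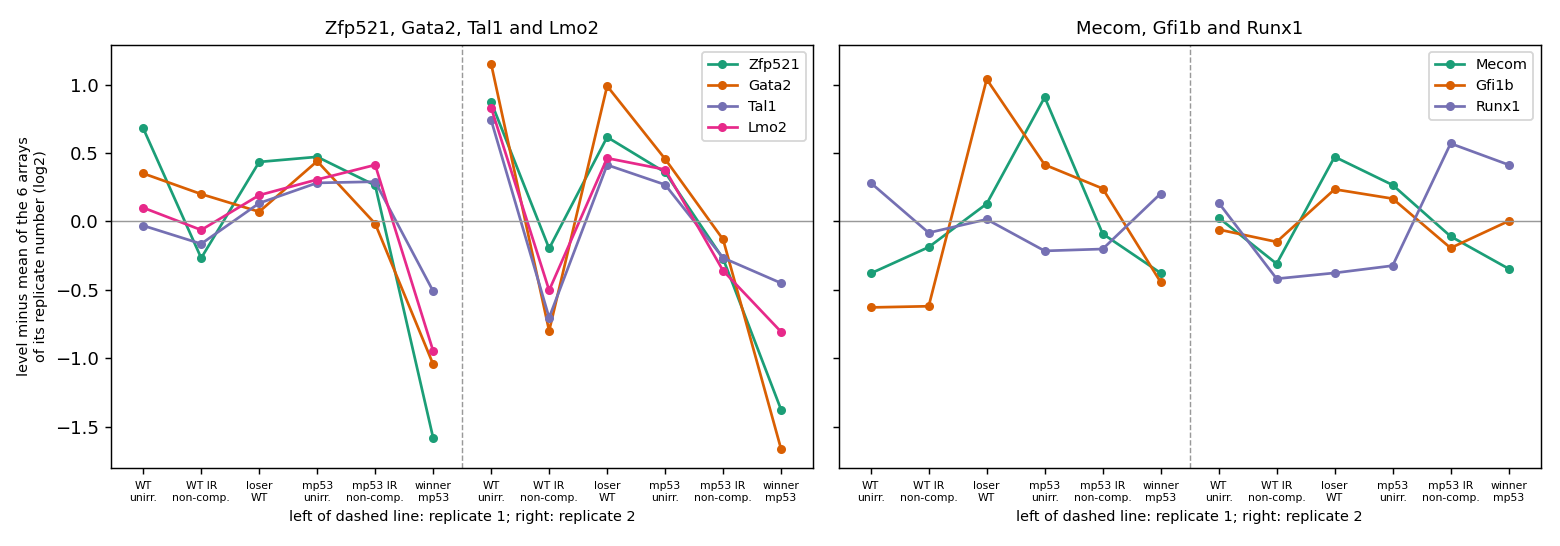
Log2 level of each tested member minus its mean over the 6 arrays of the same replicate number (vertical axis), over the 6 groups of replicate 1 (left of the dashed line) and replicate 2 (right). Zfp521, Gata2, Tal1 and Lmo2 dip together in winners and, in replicate 2, lie below their mean in both non-competing groups. Zfp521 sits at -0.27 and -0.20 in the 2 replicates of non-competing WT cells. Mecom is also low in winners, at -0.38 and -0.35, and in replicate 2 below its mean in both non-competing groups. It stands highest, at 0.91, in replicate 1 of the unirradiated mp53 cells. Gfi1b and Runx1 take other courses.

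Genes whose profile was most like that of each member were sought by the same correlation over the 12 arrays among 8373 other genes. Zfp521 was most like Ndn (0.973) and Tle6 (0.965), Gata2 most like Tbxas1 (0.969) and Maged1 (0.964), Tal1 most like Gnat2 (0.983) and Armcx2 (0.976), and Lmo2 most like Tmem176b (0.987) and Trim44 (0.981). Ndn, a growth suppressor, is also on the list of HSC identity genes. For the others the top genes were Gm5544 (0.981) and Gm11992 (0.972) for Mecom, Vkorc1l1 and Rprd1b (both 0.925) for Gfi1b, and Asb2 (0.917) and Pcnx (0.902) for Runx1. The levels of Mecom and Runx1, both dim, correlated with array brightness at r = -0.76 and 0.82. The part of brightness in these likenesses was not tested.

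Other HSC transcription factors were set beside the members in the comparison of winners with losers. Of 27 listed genes 26 had a probe and 16 were tested, of which 14 lay lower in winners; 11 of 16 lay below the all-probe shift under median scaling and 9 of 16 below the all-probe median with the brightness covariate. Their median difference was -1.04, and 4 were under an unadjusted p of 0.05, all lower (6.37% of all probes lower), with 0 after adjustment. Meis1, a homeobox partner of Hox proteins, read 7.66 ± 0.98 in winners and 10.75 ± 0.41 in losers, a difference of -3.09 (SE 0.74). Nkx2-3 differed by -3.02 (SE 0.76), Hoxa5 by -2.67 (SE 0.63) and Hoxa7 by -2.49 (SE 0.59), each at a limma adjusted p of 0.292, the same as that of Zfp521. Against unirradiated mp53 cells 15 of 16 lay lower, and 13 of 16 lay below the shift under median scaling.

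Lineage transcription factors mostly lay higher in winners. Of 14 tested (of 20 listed, 18 with a probe), 11 lay higher, with a median of 0.67. Above the all-probe shift under median scaling lay 10. Ebf1, Irf4 and Spib entered the tests only through winners, so the filter favoured their higher level there. At an unadjusted p under 0.05, 4 were higher (7.34% of all probes) and 1 lower (6.37% of all probes), with 0 after adjustment in limma. Irf8, a monocyte and dendritic cell factor, was at least 11.5-fold higher and Cebpa, the granulocyte factor, at least 2.57-fold higher, since losers did not detect either. Klf1, the erythroid factor, differed by 2.30 (SE 1.19) and Cebpe, of late granulocytes, by 2.21 (SE 1.79).

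**Figure D5:**
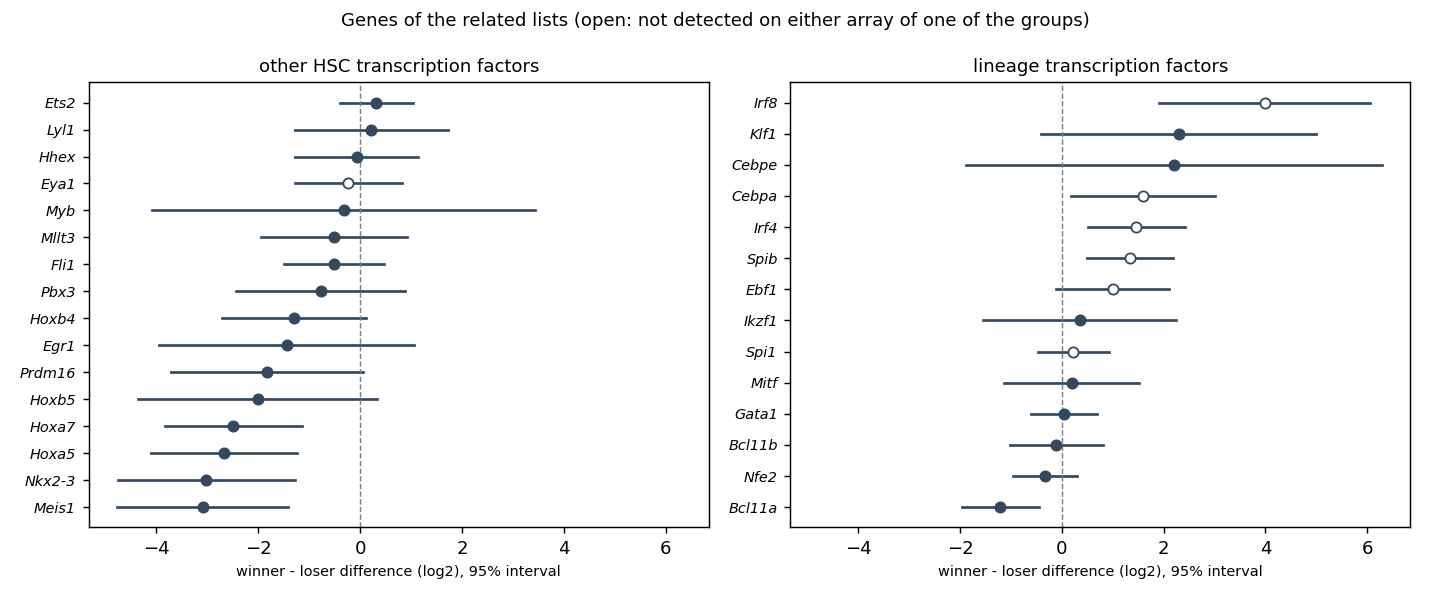
Winner minus loser log2 differences (points) with 95% intervals (lines) of the tested genes of 2 related lists; open points are genes not detected on either array of 1 of the groups, whose fitted difference is not a bound. Of the HSC factors 14 of 16 lie below 0 and of the lineage factors 11 of 14 above. Relative to all probes 11 and 10 did so under median scaling. Among the lineage factors, Ebf1, Irf4 and Spib entered the tests only through winners. No gene passed the adjusted threshold.

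Partners of the members did not move as one. Of 9 tested partners of Tal1, Lmo2, Gata2 and Runx1 (11 listed), 6 lay lower in winners with a median of -0.44, but 7 of 9 lay above the all-probe shift under median scaling. Cbfa2t3, a corepressor found in Tal1 complexes, read 4.95 ± 0.08 in winners and 6.06 ± 0.06 in losers, a difference of -1.11 (SE 0.36, limma adjusted p = 0.303). Tcf4, an E-protein, differed by -0.96 (SE 0.50), Ssbp2, which stabilizes the Lmo2 partner Ldb1, by -0.74 (SE 0.36), and the E-protein Tcf12 by 0.65 (SE 0.52).

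Of 10 tested Polycomb partners of Bmi1 (19 listed, 17 with a probe), 5 lay lower and 5 higher in winners, with a median of -0.14. Pcgf1, among the higher ones, entered the tests only through winners. Under median scaling 4 lay below and 6 above the all-probe shift. At an unadjusted p under 0.05 there were 3, all lower (6.37% of all probes lower). Phc1 differed by -1.64 (SE 0.61, limma adjusted p = 0.322), Cbx6 by -1.59 (SE 0.41, adjusted p = 0.292), Pcgf6 by -0.83 (SE 0.44) and Phc2 by -0.77 (SE 0.30). Of 6 tested corepressors of Gfi1 and Gfi1b (7 listed), 3 lay lower and 3 higher, with a median of -0.02 (2 below and 4 above that shift). None was under an unadjusted p of 0.05, against 13.7% of all probes. Hdac1 differed by -0.55 (SE 0.40), Kdm1a by 0.33, Hdac2 by -0.32 and Rcor3 by -0.28, and the 95% intervals of these 4 included 0.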

How the data were processed

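The labels' protocols describe Trizol RNA of 200 sorted cells, amplification with the RiboAmpHS kit and biotin labelling during the second round by in vitro transcription. The authors deposited non-normalized bead array intensity per probe, each paired with a p-value of detection per the file headers, in 1 table per replicate number, and a processed table of linear intensity, which judging from its values was scaled within each replicate number, by a method not given in the sources used here. Intensities were background corrected with limma's normexp (parameters from the detection p-values, offset 16) and quantile normalized over 12 arrays, and log2 values of probes with a detection p under 0.05 in both replicates of 1 group or more were fitted with 1 mean per group (lmFit and eBayes, 6 residual degrees of freedom, R 4.3.3, limma 3.58.1). The 12 contrasts were adjusted by Benjamini-Hochberg over all 13512 probes. A probe that passed only through groups where it is high had to differ there, as may Runx1, which passed through unirradiated WT cells and winners. Cd79a, Blnk, Fcrla, Cd3e, Thy1, Ermap, Il7r, Ebf1, Irf4, Spib, Gp1bb and Pcgf1 passed only through winners. With so few arrays precision is limited, and the median SE of a difference was 0.44 over all probes.

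Probes were named by the platform annotation, which gives 1 symbol for 29976 probes, several for 10 and none for 16646; 29921 matched a RefSeq gene by ID. A gene with several kept probes stands for the brightest. A fold against a group with no detected array is computed against the lowest signal detected there. Named beside the members are, per list, up to 4 tested genes with the widest difference and, per member, the 2 genes most like it. The members and lists were chosen with earlier results of these data known. Alternatives changed the background correction, scaling, filter, variance prior, probe choice, arrays in the fit, brightness and the replicate number as a block, used the authors' processed table, or left out arrays. The script was tested on simulated data. Promoter windows are RefSeq's.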

Additional observations from a re-analysis of the deposited data

Results flagged for a closer look

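For 4 members the mp53 and WT differences had opposite signs, with groups that did not overlap on either side, which gave 5 results. The share of all probes that met this rule was not computed, so the count is not read as a result about the members. The results were picked from the same arrays on which the interactions were tested. None of these 5 results passed limma's test of the interaction after adjustment. For Zfp521, the interaction of competition and genotype was -2.23 (SE 0.60, adjusted p = 0.599), from -1.48 on the mp53 side and 0.76 on the WT side. For Mecom it was -0.81 (SE 0.46, adjusted p = 0.704), from -0.26 and 0.55. The interaction of irradiation and genotype in mosaic mice was -1.43 for Mecom (SE 0.46, adjusted p = 0.301), from -0.95 in mp53 and 0.48 in WT cells. For Gfi1b it was -1.49 (SE 0.54, adjusted p = 0.301), from -0.51 and 0.98, and for Runx1 0.97 (SE 0.53, adjusted p = 0.368), from 0.58 and -0.39. Runx1 was detected on no loser array and no unirradiated mp53 array, so each of its sides rests on an undetected group. The 3 values of the irradiation interaction include the 2 dimmest arrays.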

How the results depend on the processing

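The 84 differences of the 7 tested members were recomputed under 26 alternatives, 2136 values in all. Of these 2047 kept their direction and their side of the threshold, 56 turned sign where the difference was within its SE, 31 turned sign beyond that and 2 passed the threshold.

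Most turns came with median scaling, here with the all-probe shift left in. Winner minus loser became 0.075 for Gata2, 1.20 for Gfi1b, 1.24 for Tal1 and 0.55 for Lmo2. Loser minus non-competing WT became -0.033 for Zfp521, -0.035 for Gata2, -0.16 for Tal1 and -0.10 for Lmo2. Winner minus unirradiated mp53 became 0.16 for Gata2, 1.47 for Gfi1b, 1.28 for Tal1 and 0.56 for Lmo2. The competition interaction became 0.35 for Gfi1b and 0.27 for Tal1, and the irradiation interaction 1.06 for Zfp521, 1.82 for Gata2, 2.02 for Gfi1b and 1.70 for Lmo2. Gfi1b became -0.81 for mp53 minus WT in unirradiated cells and -0.54 for loser minus unirradiated WT, and the averaged genotype difference of Lmo2 became 0.051. With brightness as a covariate, winner minus loser became -0.12 for Runx1 and 0.18 for Tal1, winner minus unirradiated mp53 -0.0012 for Runx1 and 0.13 for Tal1, loser minus unirradiated WT 0.026 for Runx1, and the irradiation interaction 0.54 for Gata2 and -0.028 for Runx1. The cause of these turns was not tested.

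With arrays left out in turn, which assumes that the lone array left varies like the other groups, the members called ran from 0 to 1 in winner minus unirradiated mp53 and in the irradiation interaction, where Mecom passed without replicate 2 of the unirradiated mp53 cells. Gata2 ran from -0.17, without replicate 2 of the non-competing WT cells, to 1.83 in loser minus non-competing WT. Runx1 in non-competing mp53 cells ran from -0.12 to 0.99 against non-competing WT and from -0.10 to 1.01 against unirradiated mp53, lowest without replicate 2 of the first group. Over all probes the trended robust prior called 3 in winner minus loser.

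The labels do not say that replicate numbers pair the samples, and 1 of 15 pairs of groups missed the correlation of 0.1 set for treating them as paired: same-numbered arrays deviated together at r = 0.057 to 0.643 (median 0.526). Levels correlated at a median of 0.924 between arrays of different groups with the same number, against 0.869 between replicates of a group, which is a hint from the data and not the design. With the replicate block, 0 members passed in any comparison, the members under an unadjusted p of 0.05 in winner minus loser went from 3 to 5 and all such probes from 1853 to 3552, and the adjusted p of Zfp521 was 0.126. Such members went from 2 to 5 in the competition interaction, 1 to 3 in winner minus non-competing mp53, 1 to 2 in loser minus non-competing WT, in non-competing minus unirradiated WT and in the averaged genotype difference, 0 to 1 in non-competing minus unirradiated mp53 and 3 to 4 in the irradiation interaction. With 2 arrays a group and dim probes for Mecom and Runx1, differences near the SE could not be resolved.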
